A study of Mus musculus with 21 samples.

Results

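The subject of this report is 9 genes of the phagocyte NADPH oxidase and of antioxidant defence, followed through RNA sequencing of primary mouse brain microglia. They were chosen by gene symbol from the 54532 gene rows of the deposited tables, and all 9 were present and passed the filter on low values in both tables. The oxidase is represented by 5 genes, Cybb, Cyba, Ncf1, Ncf4 and Rac2, and the antioxidant enzymes by 4, Gsr, Hmox1, Nqo1 and Txnrd1. The study asked how loss of Trem1, a receptor that amplifies inflammatory signalling in myeloid cells, affects microglia in aging and in an Alzheimer's disease model. One table, called the aging table here, combined 2 ages with 2 genotypes: young or aged mice, each either wild-type or Trem1-/-, with 3 libraries for every combination, 12 in all. A separately normalized adult table held 9 libraries, 3 each from adult wild-type mice, adult 5XFAD mice and adult 5XFAD mice labelled 5XFADXTREM1+/-, written here as 5XFAD Trem1+/-. 5XFAD mice carry mutant human transgenes, APP among them, driven by the neuronal Thy1 promoter. Ages were given only as the words young, aged and adult, and the Trem1 allele is described only as a genetic deletion, with no cell type restriction stated.

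The phagocyte NADPH oxidase moves electrons from NADPH across a membrane to oxygen and so makes superoxide. Its catalytic core is a membrane heterodimer of the products of Cybb (gp91phox, also called NOX2) and Cyba (p22phox), which becomes active when cytosolic proteins, among them p47phox (Ncf1) and p40phox (Ncf4), and a Rac GTPase join it. Microglia, neutrophils and monocytes all use this enzyme, and in the brain microglia are the main resident cells that carry it. Cells answer oxidants through glutathione, which Gsr keeps reduced, through thioredoxin, which Txnrd1 keeps reduced, through Nqo1, which reduces quinones without releasing radicals, and through Hmox1, which breaks down haem. Nqo1, Txnrd1, Gsr and Hmox1 are textbook targets of the transcription factor NRF2, which binds antioxidant response elements, whereas Cybb is a textbook target of the myeloid factor PU.1.

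Assigned reads per library ran from 8600878 to 19411434 among the aging and from 9264999 to 18698707 among the adult libraries. Values are the authors' normalized reads, that is, reads divided by a size factor per library, and 3 reads, the limit that a count of 0 allows, corresponded to 2.06 to 4.51 normalized reads in the aging table. The microglial markers Tmem119 and P2ry12 and the other 9 of a list of 11 were detected in every group. Their summed level was 464696 to 523846 normalized reads in young wild-type and 334040 to 374868 in aged Trem1-/- libraries. Trem1 itself did not follow its labels. It stood at 25.2, 7.65 and 8.74 normalized reads in the young wild-type libraries and at 89.4, 99.8 and 89.5 in those labelled young Trem1-/-, and it rose between them by 2.85 ± 0.45 on the log2 scale (limma, adjusted p = 0.000622). It averaged 231 ± 40.8 (SD, n = 3) in aged wild-type and 164 ± 68.9 in aged Trem1-/- libraries. Which part of the gene the deletion removes is not given in the sources used here, so reads counted over the whole gene do not check the allele. Every direction drawn below from a Trem1 group is one between libraries as labelled.

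RefSeq promoter windows on GRCm38.p6 were matched for 5 of the 9 genes, Cybb, Cyba, Ncf1, Nqo1 and Txnrd1, the last with 3 start sites. The 250 bases before the start are shown for Cybb and Nqo1, whose levels differed most between groups, and for the Txnrd1 start with an antioxidant response element core. Each is written 5′ to 3′ on the gene's strand, and capitals mark the match. They lie at chrX:9469325-9469574 (minus strand), chr8:107403206-107403455 (minus strand) and chr10:82858956-82859205 (plus strand).
Cybb: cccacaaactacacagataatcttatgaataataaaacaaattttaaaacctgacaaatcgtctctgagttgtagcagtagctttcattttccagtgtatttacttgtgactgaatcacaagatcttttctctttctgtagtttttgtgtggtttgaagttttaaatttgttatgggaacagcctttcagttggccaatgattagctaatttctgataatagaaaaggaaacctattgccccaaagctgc
Nqo1: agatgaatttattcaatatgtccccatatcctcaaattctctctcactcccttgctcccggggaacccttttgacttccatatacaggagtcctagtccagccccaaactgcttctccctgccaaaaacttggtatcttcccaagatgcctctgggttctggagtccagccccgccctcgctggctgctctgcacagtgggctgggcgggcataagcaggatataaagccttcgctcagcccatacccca
Txnrd1: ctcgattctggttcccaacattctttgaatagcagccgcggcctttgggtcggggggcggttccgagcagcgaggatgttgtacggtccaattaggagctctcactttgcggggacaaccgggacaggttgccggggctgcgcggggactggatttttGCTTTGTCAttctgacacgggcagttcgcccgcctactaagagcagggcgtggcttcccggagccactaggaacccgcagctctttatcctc
The core searched was TGACNNNGC on both strands. In the Txnrd1 window it was found on the opposite strand as TGACAAAGC, from 92 to 84 bases before the start, at position 82859114 to 82859122. None of the other 6 windows of these genes held it, that of Nqo1 included, while 12.4% of all 32851 windows in the table did. The windows end 250 bases before and 50 bases after the start. A core further away, in Nqo1 or any other gene, would not have been found. The letters GAGGAA, used here as a form of the PU.1 core, were also searched on both strands. They occurred upstream of another Txnrd1 start, 169 and 84 bases before it on the opposite strand. In Cybb they occurred only after the start, from base 10. Among all windows 28.3% held GAGGAA. Other forms of the PU.1 core were not searched, so the search does not show whether Cybb has one before its start. These matches describe the letters of the windows and were not related to binding or to the expression values.

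In young against aged wild-type microglia, the question was which oxidase and antioxidant genes differ with age. Cybb, which encodes the catalytic subunit, showed 1376, 765 and 578 normalized reads in the 3 young libraries and 3385, 4243 and 6213 in the 3 aged ones. Every aged library exceeded every young one, and Cybb rose by 2.40 ± 0.37 (SE) on the log2 scale, 5.27-fold (adjusted p = 0.00498; this and the p-values below are from limma with Benjamini-Hochberg adjustment over all genes tested). In bulk samples a change in the number of cells of a type and a change in RNA per cell cannot be told apart. Rac2, the haematopoietic Rac GTPase, had 1676, 1249 and 1364 normalized reads in young and 3150, 2447 and 3105 in aged libraries. Again the groups did not overlap, and Rac2 rose by 1.02 ± 0.15 (adjusted p = 8.79e-05).

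The other oxidase subunits did not pass the test. Cyba, the partner that stabilizes the Cybb product in the membrane, had 2467, 2354 and 2046 normalized reads in young and 3220, 2078 and 2018 in aged wild-type libraries. Those groups overlapped, with a log2 difference of 0.06 ± 0.15 (adjusted p = 0.869). Ncf1, the organizer subunit, ranged from 8449 to 9205 in young and from 8585 to 11702 in aged libraries, a log2 difference of 0.25 ± 0.10 (adjusted p = 0.146). Ncf4, whose product binds a membrane phosphoinositide, ranged from 791 to 965 in young and from 1068 to 1448 in aged libraries. Its groups did not overlap, but the log2 difference of 0.50 ± 0.17 had an adjusted p of 0.07. Without aged wild-type replicate 2, the lowest aged library for Ncf1 and Ncf4, Ncf1 differed by 0.40 (adjusted p = 0.00552) and Ncf4 by 0.61 (adjusted p = 0.0328).

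**Figure D1:**
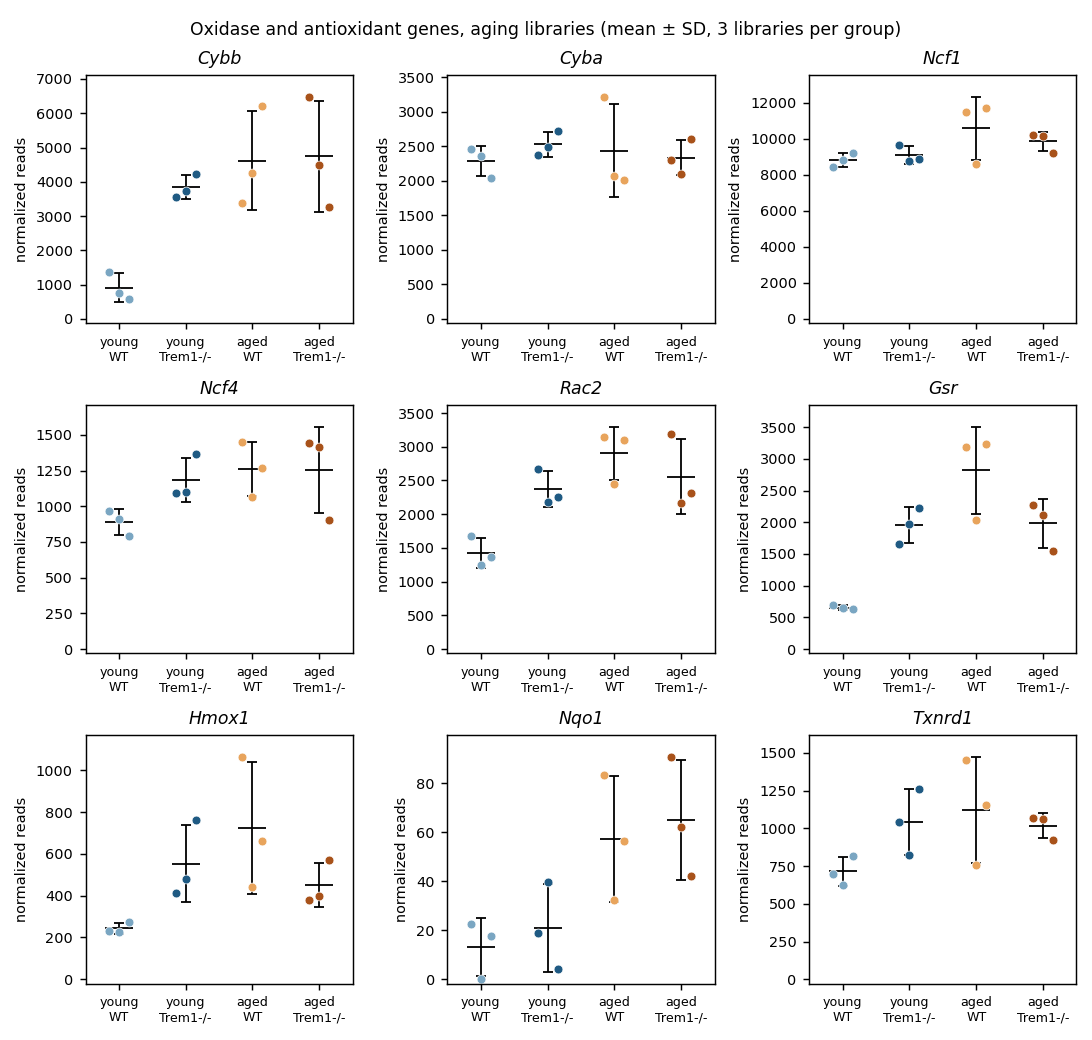
Normalized reads (y axis, starting at 0) of the 9 genes in each of the 12 aging libraries, by group; points are libraries, the long bar is the mean and the whiskers 1 SD. Gsr, Cybb, Rac2 and Hmox1 are lowest in all 3 young wild-type libraries, while the groups of Cyba and Ncf1 overlap.

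Among the antioxidant enzymes, Gsr had the most uniform young level, at 691, 641 and 624 normalized reads, against 3190, 2031 and 3237 in aged wild-type libraries. The groups lay far apart, and Gsr rose by 2.08 ± 0.17, 4.23-fold (adjusted p = 2.22e-07). Hmox1 had 232, 224 and 273 normalized reads in young and 1063, 440 and 664 in aged libraries. All aged libraries were above all young ones despite their spread, and Hmox1 rose by 1.48 ± 0.28 (adjusted p = 0.00174). Nqo1 was low, and young wild-type replicate 2 held 0 reads of it. Nqo1 had 22.4, 0 and 17.5 normalized reads in young libraries and 83.3, 32.2 and 56.2 in aged ones. These groups did not overlap either, but the log2 difference of 2.85 ± 0.99 had an adjusted p of 0.0854. Without young wild-type replicate 1, Nqo1 differed by 3.66 (adjusted p = 0.037). Txnrd1 ranged from 625 to 818 in young and from 754 to 1454 in aged libraries, and its groups overlapped (log2 difference 0.61 ± 0.20, adjusted p = 0.0637). It passed the test with DESeq2 on recovered reads (0.65, adjusted p = 0.0242) and without aged wild-type replicate 2 (0.87, adjusted p = 0.00246).

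In all, 4 of the 9 genes rose with age in wild type and none fell, where 8.67% of the 16086 genes tested passed in either direction. In 6 of the 9 the aged and young libraries did not overlap, all with aged libraries higher, against 26.2% of all genes in either direction. The median log2 difference of the 9 was 1.02, against -0.01 over all genes tested. Markers of other myeloid cells moved in the same comparison. Of 15 neutrophil markers 14 rose, with a median log2 difference of 3.03, and the list summed to 17772 to 26685 normalized reads in young and 85091 to 153462 in aged libraries. Of 10 tested monocyte markers 9 rose, with sums of 2454 to 5086 in young and 18009 to 34566 in aged libraries, S100a4 being at 0 in all young wild-type libraries. No neutrophil marker was at 0 in any group. Of 11 microglial markers 9 fell, with sums of 364078 to 398690 in aged wild-type libraries. Of 15 genes of immediate early and handling stress responses 3 rose, Ier2, Klf2 and Dusp1, with a median log2 difference of 0.82 over the 15, and the part of this list in the results was not tested.

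A fit that added the mean log2 level of the 25 neutrophil and monocyte markers was made to set the 4 calls beside these markers. It gave log2 differences of -0.63 ± 0.61 for Cybb, -0.30 ± 0.44 for Rac2, 0.56 ± 0.50 for Gsr and 1.34 ± 1.01 for Hmox1, with adjusted p = 1 for each. With that term none of the 16086 genes tested passed, and 450 had an unadjusted p under 0.05. The 4 groups accounted for 93.5% of the variance of the marker mean among libraries, so that marker level and group cannot be told apart in this table.

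**Figure D2:**
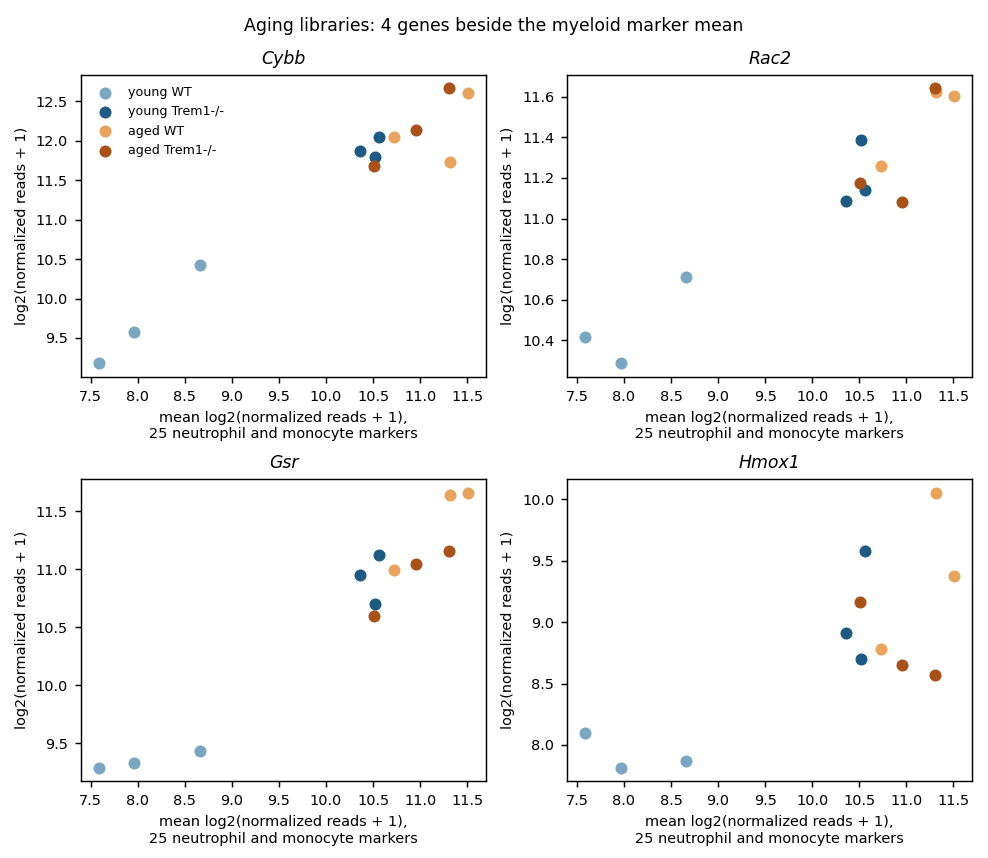
Each point is 1 of the 12 aging libraries; the x axis is the mean log2(normalized reads + 1) of 25 neutrophil and monocyte markers and the y axis log2(normalized reads + 1) of Cybb, Rac2, Gsr or Hmox1. The 3 young wild-type libraries lie apart at the lower left, with marker means of 7.59 to 8.66, and the other 9 lie between 10.4 and 11.5.

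The comparison of young Trem1-/- with young wild-type libraries shares the young wild-type libraries with the one above, so the values stand side by side and are not independent. The libraries labelled young Trem1-/- had 3542, 3739 and 4222 normalized reads of Cybb. All 3 lay above the young wild-type range, with the smallest SD of the 4 aging groups, and Cybb rose by 2.17 ± 0.37 (adjusted p = 0.0188). Rac2 had 2675, 2175 and 2254 normalized reads and rose by 0.73 ± 0.15 (adjusted p = 0.00551). Gsr had 1661, 1980 and 2228 normalized reads and rose by 1.57 ± 0.17 (adjusted p = 2.58e-05). Hmox1 had 414, 481 and 763 normalized reads and rose by 1.14 ± 0.28 (adjusted p = 0.0303). None of these 4 overlapped the young wild-type libraries.

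Cyba, Ncf1 and Nqo1 overlapped between the young groups, with log2 differences of 0.15 ± 0.15, 0.04 ± 0.10 and 1.09 ± 0.99. Nqo1 had 18.7, 39.7 and 4.21 normalized reads in the libraries labelled Trem1-/-. Ncf4, with 1090 to 1363 normalized reads, and Txnrd1, with 822 to 1262, did not overlap young wild type but did not pass the test (log2 differences 0.41 ± 0.17 and 0.53 ± 0.20, adjusted p = 0.288 and 0.217). Thus 4 of 9 genes rose and none fell, where 2.58% of all genes passed. In 6 of 9 the groups did not overlap, all with the libraries labelled Trem1-/- higher, against 20.4% of all genes in either direction. The median log2 difference was 0.73 for the 9 genes and -0.01 for all.

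Several of these calls were lost when 1 library was left out, with log2 differences that stayed positive. Gsr passed without each of the 6 libraries in turn. Rac2 lost its call without young wild-type replicate 2 (0.64, adjusted p = 0.0574). Cybb lost it without young wild-type replicate 2 or 3 or any one of the libraries labelled Trem1-/-, where it differed by 1.90 to 2.23, against 2.17 with all libraries, with adjusted p from 0.0525 to 0.0853. Hmox1 lost it without any one of the young wild-type libraries or replicate 2 or 3 of those labelled Trem1-/-, where it differed by 0.88 to 1.22, against 1.14, with adjusted p from 0.0683 to 0.181. In limma without the trend and robust options Rac2 had an adjusted p of 0.156 and Hmox1 of 0.212. The marker lists again moved with the groups. Of 15 neutrophil markers 4 rose (median log2 difference 1.66, sums of 39427 to 79877 in the libraries labelled Trem1-/-), and of 10 tested monocyte markers 6 rose (median 2.77, sums of 14670 to 37768). Among the 15 stress genes 4 rose, Ier2, Klf2, Dusp1 and Hspa1a (median 0.72). The fit with the marker mean gave -0.17 ± 0.48 for Cybb and -0.29 ± 0.35 for Rac2, both with the sign turned, 0.40 ± 0.40 for Gsr and 1.03 ± 0.80 for Hmox1. The adjusted p was 1 for each, no gene of the table passed, and 327 had an unadjusted p under 0.05.

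In aged microglia the genotypes were set against each other to ask whether the Trem1 labels separate these genes late in life. Gsr had 2276, 2117 and 1546 normalized reads in aged Trem1-/- libraries. The highest of these exceeded the lowest aged wild-type library, and the log2 difference of -0.50 ± 0.17 had an adjusted p of 0.39. Hmox1 had 380, 401 and 572 normalized reads, 2 of the 3 below all aged wild-type libraries, with a log2 difference of -0.61 ± 0.28 (adjusted p = 0.492). Cybb, at 6482, 4496 and 3273 normalized reads, differed by 0.03 ± 0.37 and Rac2, at 3192, 2164 and 2312, by -0.19 ± 0.15. Nqo1 had 90.6, 62.2 and 42.1 normalized reads. None of the 9 genes passed, and in none were the groups free of overlap, where 0% of all genes passed with limma and 12.2% had groups that did not overlap. Of all genes tested, 1545 had an unadjusted p under 0.05. The intervals leave room for sizeable differences, that of Hmox1 reaching from -1.19 to -0.03.

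From young to aged Trem1-/- libraries, none of the 9 genes passed the test, where 1.71% of all genes did. Cybb differed by 0.26 ± 0.37, Rac2 by 0.09 ± 0.15, Gsr by 0.01 ± 0.17 and Hmox1 by -0.27 ± 0.28. Nqo1 was the only one of the 9 whose groups did not overlap, with aged libraries higher (1.97 ± 0.99, adjusted p = 0.358), against 21.2% of all genes. In this comparison only 1 of 15 neutrophil markers passed, but the median log2 difference of the 15 was 1.16. Their sums were 39427 to 79877 normalized reads in young and 70484 to 163097 in aged Trem1-/- libraries. None of 10 tested monocyte markers passed (median -0.45), while 4 of 11 microglial markers fell.

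The difference between the 2 age effects was then tested directly. The age difference was smaller in Trem1-/- than in wild-type libraries for Gsr by -2.07 ± 0.24 (adjusted p = 0.000122), for Hmox1 by -1.75 ± 0.39 (adjusted p = 0.0207) and for Rac2 by -0.93 ± 0.21 (adjusted p = 0.0175), all on the log2 scale. For Cybb it was -2.14 ± 0.52 with an adjusted p of 0.0834, and for the other 5 genes the estimates ran from -0.88 for Nqo1 to -0.14 for Ncf1 without passing. Cybb passed with DESeq2 (adjusted p = 0.00806) and without young wild-type replicate 1 (-2.49, adjusted p = 0.0182), and Txnrd1 without aged wild-type replicate 2 (-0.88, adjusted p = 0.0339). So 3 of 9 genes passed, all lower, where 2.54% of all genes did in either direction. For each of the 3, the levels in the libraries labelled young Trem1-/- were already above young wild type, as given above. Gsr kept its call without each of the 12 libraries in turn, but limma without the trend and robust options gave an adjusted p of 0.061 for Gsr, 0.205 for Rac2 and 0.177 for Hmox1. Rac2 lost its call without young wild-type replicate 2, aged wild-type replicate 1 or 3, or aged Trem1-/- replicate 2 or 3 (-0.87 to -0.82, adjusted p from 0.0558 to 0.0661). Hmox1 lost it without young wild-type replicate 2, young Trem1-/- replicate 3, aged wild-type replicate 3 or aged Trem1-/- replicate 2 (-1.76 to -1.49, adjusted p from 0.0562 to 0.0786). The same contrast was lower for 5 of 10 tested monocyte markers, 2 of 15 neutrophil markers and 2 of 15 stress genes, Ier2 and Klf2 (median of the 15, -1.20). With the marker mean in the fit it was -0.77 ± 0.46 for Gsr, -1.62 ± 0.93 for Hmox1 and 0.21 ± 0.41 for Rac2, whose sign turned. The adjusted p was then 1 for each, no gene of the table passed, and 309 had an unadjusted p under 0.05.

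**Figure D3:**
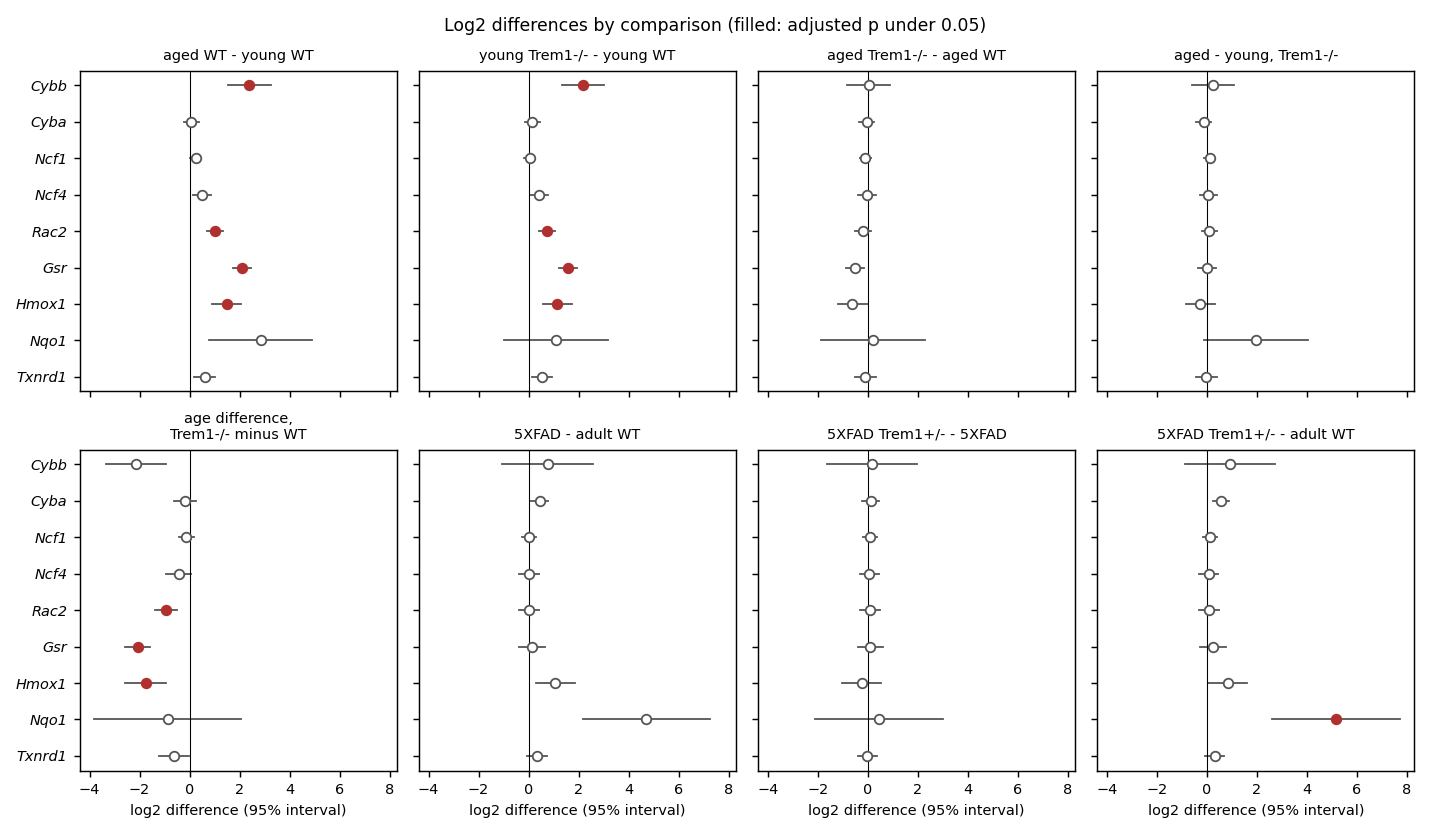
Log2 difference (x axis) with its 95% interval for each of the 9 genes in the 8 comparisons; filled red points have an adjusted p under 0.05, open points do not. Cybb, Rac2, Gsr and Hmox1 are filled in both comparisons with young wild type, Rac2, Gsr and Hmox1 in the difference of the age effects, and Nqo1 alone in 5XFAD Trem1+/- against adult wild type.

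Lists of related genes, 78 in all, were examined beside the 9, and 68 of them passed the filter in the aging table. In aged against young wild type 12 of the 68 rose and none fell, where 8.67% of all genes tested passed in either direction. The median log2 difference of the 68 was 0.25. Among 21 tested genes of glutathione synthesis and use 4 rose: Mgst1, a microsomal glutathione transferase (2.64 ± 0.36), Glrx, a glutaredoxin (1.89 ± 0.26), Slc7a11, the cystine importer (1.86 ± 0.49), and Gpx1, a peroxidase (0.69 ± 0.12). Among 15 thioredoxin and peroxiredoxin genes 3 rose: the methionine sulfoxide reductase Msrb1 (2.40 ± 0.25) and the peroxiredoxins Prdx6 (1.32 ± 0.21) and Prdx5 (0.85 ± 0.15). Of 13 regulators and further targets of NRF2, Aldh2, an aldehyde dehydrogenase (1.56 ± 0.15), and Osgin1 (1.29 ± 0.35) rose. Nfe2l2, which encodes NRF2, differed by 0.12 ± 0.11 and its inhibitor Keap1 by 0.04 ± 0.20, and neither passed. Sod1, the cytosolic superoxide dismutase, was the 1 of 4 dismutase and catalase genes that rose (0.75 ± 0.18). Por, the reductase that supplies electrons to haem oxygenase, was the 1 of 7 tested haem genes that rose (0.48 ± 0.14). Among the further oxidase genes, Rac1, another Rac GTPase that can serve the enzyme, differed by 0.32 ± 0.13 (limma, adjusted p = 0.124).

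In young Trem1-/- against young wild type, 6 of the 68 rose and none fell, where 2.58% of all genes tested passed. The 6 were Mgst1 (2.45), Msrb1 (1.92), Glrx (1.35), Prdx6 (1.0), Aldh2 (0.85) and Gpx1 (0.76). In the difference of the age effects 6 of the 68 were lower, where 2.54% of all genes tested passed in either direction. They were Msrb1 (-2.12), Mgst1 (-1.97), Glrx (-1.42), Gpx1 (-1.05), Aldh2 (-0.98) and Bach1, a repressor of antioxidant response elements (-0.58). Between the aged genotypes none passed. From young to aged Trem1-/- libraries only Ephx1, a microsomal epoxide hydrolase, rose (0.92 ± 0.24), where 1.71% of all genes tested passed. With the neutrophil and monocyte marker mean in the fit no gene of the table passed in aged against young wild type, in young Trem1-/- against young wild type or in the difference of the age effects, so the counts of 12, 6 and 6 became 0 in each.

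Per kilobase of exon, the 9 genes spanned a wide range of levels. In young wild-type libraries Ncf1 and Cyba led, at 2410 ± 103 (SD, n = 3) and 2203 ± 210 normalized reads per kilobase, a gap within the spread of the libraries. Rac2 (461 ± 71.1) and Ncf4 (440 ± 44.1) followed, also within their spread, then Gsr (237 ± 12.8), Cybb (156 ± 71.8), Hmox1 (139 ± 15.1) and Txnrd1 (101 ± 13.7), and Nqo1 was lowest at 8.56 ± 7.58. The libraries of Cybb overlapped those of its neighbours Gsr and Hmox1. In aged wild-type libraries Ncf1 (2893 ± 476) and Cyba (2347 ± 652) still led, and Gsr (1024 ± 248), Rac2 (935 ± 127) and Cybb (794 ± 250) came next within one another's spread. In adult wild-type libraries the order was Ncf1 (2213 ± 328), Cyba (1625 ± 362), Rac2 (478 ± 132), Ncf4 (417 ± 16.8), Cybb (197 ± 220), Gsr (172 ± 57.9), Hmox1 (132 ± 62.9), Txnrd1 (122 ± 21.1) and Nqo1 (0.16 ± 0.28), with Cybb, Gsr, Hmox1 and Txnrd1 within their spread. Cyba stayed above Cybb per kilobase in the mean of every aging group, and the ratio between them differed. Counted as normalized reads, not per length, the ratio of Cybb to Cyba was 0.28 to 0.56 in young wild-type libraries, 1.49 to 1.55 in young Trem1-/-, 1.05 to 3.08 in aged wild-type and 1.26 to 2.81 in aged Trem1-/- libraries. That ratio, which any scaling of a library leaves as it is, did not overlap between young wild type and the other 3 groups. The ratio of Gsr to Txnrd1, the enzymes that keep glutathione and thioredoxin reduced, was 0.76 to 1.02 in young wild-type and 2.19 to 2.81 in aged wild-type libraries.

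For each gene the 3 tested genes with the most similar pattern over the 12 aging libraries were listed by Pearson r of log2 values, as a description, since all points share their library, scaling and group structure. Those most like Cybb were Rasgrp2, C3 and Kif23 (r = 0.98 each; 0.67, 0.88 and 0.55 over the 9 adult libraries). For Rac2 they were Gpi1 and Pgd (r = 0.98 each) and Capn1 (0.97), which fell to 0.21, 0.50 and 0.28 in the adult libraries. For Gsr they were Sorl1 and Fosl2 (r = 0.99 each) and Stx11 (0.98), with 0.45, 0.65 and 0.83 in the adult libraries. Hmox1 was most like Bak1 (0.97), Hsp90ab1 (0.96) and Zyx (0.95), with 0.70, 0.71 and 0.21 in the adult libraries. Nqo1 was most like Metrn (0.97), Hist1h4i and S100a1 (0.95 each), with 0.48, 0.27 and 0.85 in the adult libraries. Cyba stood beside Hsbp1 (0.94) and the ribosomal protein genes Rps16 (0.93) and Rps3 (0.92), with 0.58, 0.85 and 0.91 in the adult libraries. Ncf1 was most like Mdh2 (0.92), Cab39 (0.91) and Abhd2 (0.90), with -0.36, 0.06 and -0.30 in the adult libraries. Ncf4 was most like Mctp2 (0.93), Gm47071 (0.92) and Rgs18 (0.91), with 0.08, -0.04 and 0.09 in the adult libraries. Txnrd1 was most like Gm5620 (0.96), Klhl2 (0.92) and Tbc1d10b (0.92), with 0.55, 0.45 and 0.11 in the adult libraries.

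In the adult table, the question was whether the 5XFAD transgenes and the Trem1+/- label separate these genes. Trem1 averaged 31.0, 27.5 and 27.2 normalized reads in adult wild-type, 5XFAD and 5XFAD Trem1+/- libraries, and did not pass between any of them. Adult wild-type Cybb was split, with 2619 normalized reads in replicate 1 and 366 and 454 in the other 2 libraries, while the 5XFAD libraries had 1155, 1086 and 1670. All 5XFAD libraries lay between those values, and the log2 difference of 0.76 ± 0.74 had an adjusted p of 0.703. Adult wild-type replicate 1 also had the highest neutrophil marker sum of the 9 adult libraries, 59092 against 14318 and 23600 in the other wild-type libraries and 22105 to 33784 in the 6 with 5XFAD. Its monocyte marker sum was 8001, against 892 and 2222 in the other wild-type libraries and 2064 to 8875 in the 6 with 5XFAD, the highest being 5XFAD replicate 3. Without that library Cybb was higher in 5XFAD by 1.65 (adjusted p = 0.000784) and in 5XFAD Trem1+/- by 1.81 (adjusted p = 0.000252), so these values rest on 2 wild-type libraries. With all libraries and the neutrophil and monocyte marker mean in the fit, Cybb differed by 0.37 ± 0.25 in 5XFAD (limma, adjusted p = 0.56). For 5XFAD Trem1+/- against wild type that fit gave 0.43 ± 0.26 (limma, adjusted p = 0.472). The groups accounted for 8.19% of the variance of the marker mean among the adult libraries.

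**Figure D4:**
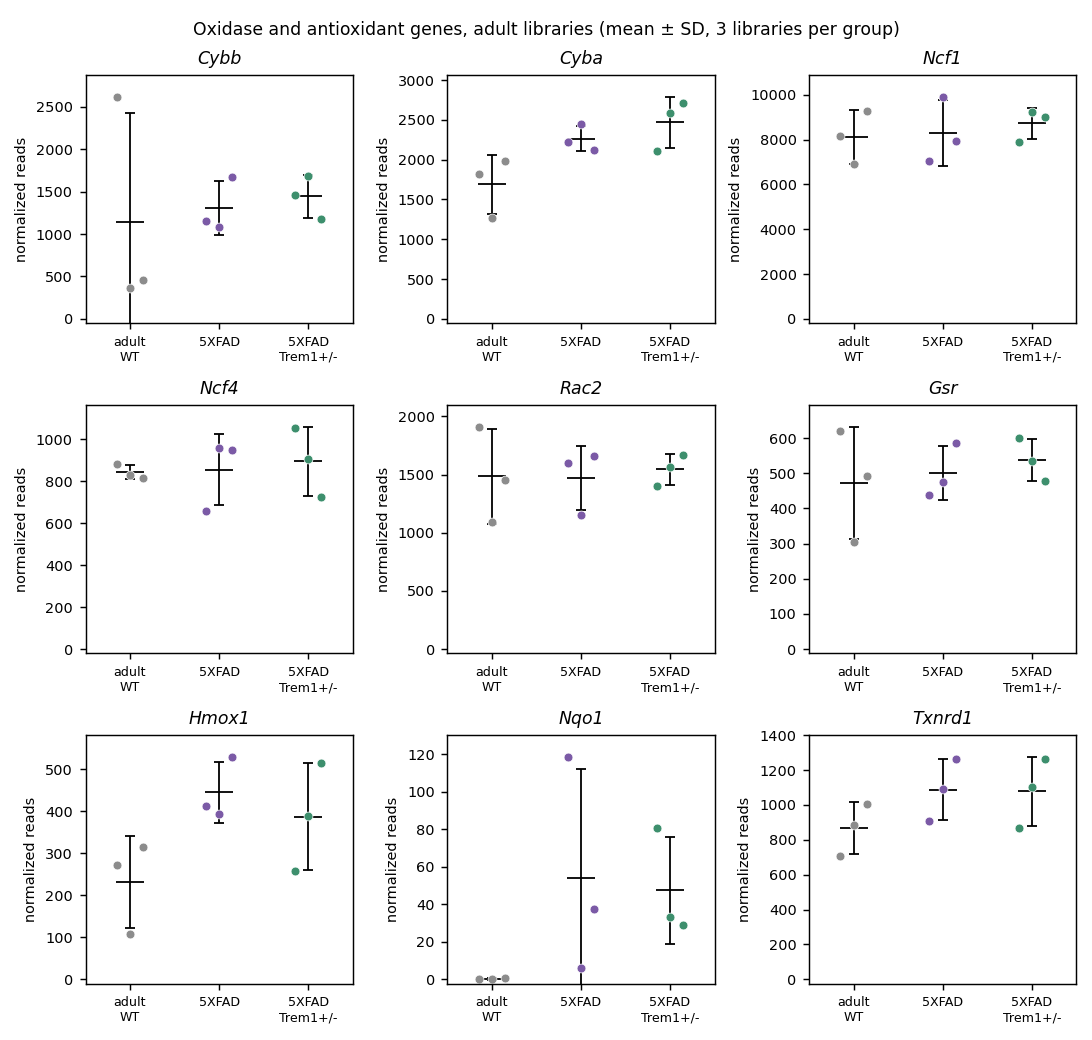
Normalized reads (y axis, starting at 0) of the 9 genes in each of the 9 adult libraries, by group; points are libraries, the long bar is the mean and the whiskers 1 SD. Nqo1 is at 0 to 0.75 in the wild-type libraries and at 5.82 to 119 in the 6 others, and 1 wild-type library stands apart for Cybb.

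Cyba had 1824, 1263 and 1978 normalized reads in adult wild-type and 2227, 2444 and 2128 in 5XFAD libraries. The 5XFAD libraries were all higher, but the log2 difference of 0.45 ± 0.16 had an adjusted p of 0.183. In 5XFAD Trem1+/- libraries Cyba had 2110, 2586 and 2718 normalized reads, again all above wild type, a log2 difference of 0.57 ± 0.16 (adjusted p = 0.0649). That difference from wild type passed with DESeq2 (0.55, adjusted p = 0.0322), with no filter on low values (adjusted p = 0.00709) and without adult wild-type replicate 3 (0.69, adjusted p = 0.0397) or 5XFAD Trem1+/- replicate 1 (0.68, adjusted p = 0.0464). Ncf1, Ncf4 and Rac2 overlapped between wild type and each 5XFAD group, with log2 differences from wild type between 0.00 and 0.11 and standard errors of 0.13 to 0.19.

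Nqo1 had 0, 0 and 1 read in the 3 adult wild-type libraries, that is 0, 0 and 0.75 normalized reads. In 5XFAD libraries it had 119, 5.82 and 37.6 normalized reads and in 5XFAD Trem1+/- libraries 80.5, 33.0 and 28.7. Every library with 5XFAD was above every wild-type one, although 5XFAD replicate 2 held only 4 reads. In 5XFAD against wild type the log2 difference was 4.71 ± 1.22 (adjusted p = 0.0528), and in 5XFAD Trem1+/- against wild type Nqo1 rose by 5.17 ± 1.22 (adjusted p = 0.0264). With 1 read in the wild-type group, the ratio of depth-scaled reads was 185 for 5XFAD, with an exact 95% counting interval of 32.8 to 7340, and 141 for 5XFAD Trem1+/-, with an interval of 25 to 5616. The intervals cover counting error only. With edgeR (adjusted p = 0.0314) and DESeq2 (adjusted p = 0.000374) Nqo1 also passed for 5XFAD, as it did without 5XFAD replicate 2 (adjusted p = 0.0208) and with no filter on low values (adjusted p = 0.0127). The authors' deposited log2 fold change of Nqo1 for the adult libraries was -7.25 (DESeq2, adjusted p = 0.00033). As read from the values, that contrast set adult wild type against 5XFAD, so its sign also means a higher level in 5XFAD. DESeq2 on recovered reads gave 7.25 for 5XFAD against wild type. The call for 5XFAD Trem1+/- was lost without adult wild-type replicate 1 or 2 or any one of the 5XFAD Trem1+/- libraries, with adjusted p from 0.0514 to 0.127, and in limma without the trend and robust options (adjusted p = 0.123).

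Choroid plexus markers differed between the same libraries. The summed level of 5 markers was 2328 to 6604 normalized reads in adult wild-type, 14988 to 81736 in 5XFAD and 18295 to 103283 in 5XFAD Trem1+/- libraries, with none of the 5 at 0 in any group. Replicate 1 was the highest library for this sum and for Nqo1 within both 5XFAD groups, and 5XFAD replicate 2 the lowest 5XFAD library for both. In 5XFAD Trem1+/-, however, the sum was lowest in replicate 2 and Nqo1 in replicate 3. None of the 5 markers passed the test against wild type in either 5XFAD group, with median log2 differences of 2.56 and 3.0. In the aging table the sums were 2399 to 14948 in the 6 young and 27035 to 44780 in the 6 aged libraries. Of the 5 markers 1, Folr1, rose with age, both in wild-type and in Trem1-/- libraries. The aged wild-type libraries ranked alike for the sum and Nqo1, while aged Trem1-/- replicate 3 had the highest sum and the lowest Nqo1. In both young groups the highest library differed between the sum and Nqo1. Of 6 astrocyte markers Gfap rose in both 5XFAD groups, and of 14 tested stress genes Egr1 and Ier2 rose in 5XFAD against wild type. The part of these markers in the Nqo1 values was not tested.

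**Figure D5:**
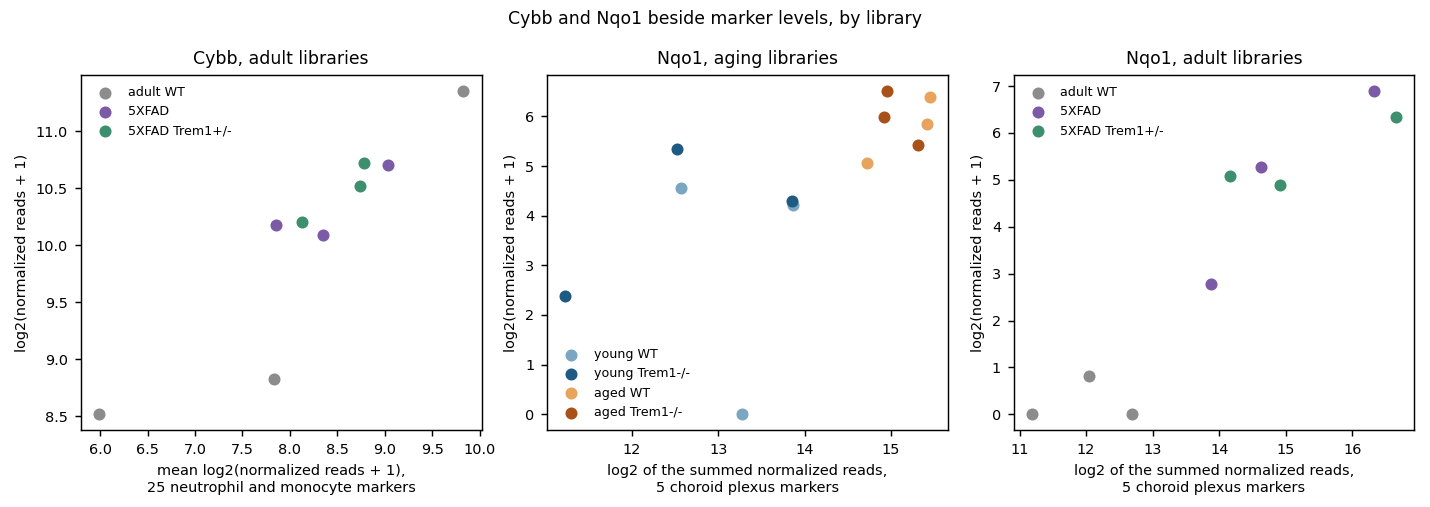
Each point is 1 library; y axes are log2(normalized reads + 1). Left, Cybb in the adult libraries against the mean log2 level of 25 neutrophil and monocyte markers, where 1 adult wild-type library is highest on both axes; middle and right, Nqo1 in the aging and adult libraries against the log2 summed level of 5 choroid plexus markers, where the 3 adult wild-type libraries lie at the lower left.

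Hmox1 had 273, 107 and 315 normalized reads in adult wild-type, 413, 393 and 529 in 5XFAD and 258, 390 and 514 in 5XFAD Trem1+/- libraries. The 5XFAD libraries were all above wild type, with a log2 difference of 1.07 ± 0.36 (adjusted p = 0.167, or 0.0266 with no filter on low values), and the 5XFAD Trem1+/- libraries overlapped it (0.83 ± 0.36, adjusted p = 0.268). Gsr ranged from 303 to 621 in wild-type and from 439.5 to 599 in the other libraries. Its log2 differences from wild type were 0.13 ± 0.25 for 5XFAD and 0.24 ± 0.25 for 5XFAD Trem1+/-. Txnrd1 ranged from 709 to 1006 in wild-type and from 870 to 1261 in the other libraries, with log2 differences of 0.33 ± 0.19 and 0.31 ± 0.19. Neither gene passed in either comparison.

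Counted together, none of the 9 genes passed in 5XFAD against wild type, where 1.98% of the 17025 genes tested did, and 3 had groups that did not overlap, Cyba, Hmox1 and Nqo1, against 17.3% of all genes. In 5XFAD Trem1+/- against wild type 1 of 9 passed, Nqo1, where 2.78% of all genes did, and 2 had groups that did not overlap, Cyba and Nqo1, against 25.5%. These 2 comparisons share the wild-type libraries. Between 5XFAD Trem1+/- and 5XFAD none passed and every gene overlapped, where 0% of all genes passed with limma, 883 had an unadjusted p under 0.05 and 11.9% had groups that did not overlap. The log2 differences there ran from -0.24 ± 0.36 for Hmox1 to 0.46 ± 1.22 for Nqo1. Their intervals are wide for Cybb (-1.64 to 1.96) and Nqo1, and narrow for Ncf1 (-0.19 to 0.36).

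Of the 78 listed genes 69 were tested in the adult table. In 5XFAD against wild type 2 of the 69 rose and none fell, where 1.98% of all genes tested passed. These were Sod3, the secreted superoxide dismutase (5.14 ± 1.12, with mean levels of 5.87 normalized reads in wild-type and 104 in 5XFAD libraries), and Ephx1 (1.08 ± 0.27). In 5XFAD Trem1+/- against wild type 5 of the 69 rose and none fell, where 2.78% of all genes tested passed. The 5 were Sod3 (5.06), Prdx6 (1.45), Prdx4 (1.16), Ephx1 (1.04) and Aldh2 (1.0). Between the 5XFAD groups none passed. None of the 9 tested further oxidase genes passed in any adult comparison. Median log2 differences of the 69 genes were 0.14, 0.32 and 0.12 in the 3 comparisons, in the order just given.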

How the data were processed

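RNA from primary brain microglia was extracted with an RNeasy kit and made into libraries with a NEBNext Ultra RNA kit, per the labels' protocols. Tools and build, per the submitters' processing notes, were fastp, HISAT2 2.0.5, featureCounts 1.5.0-p3, DESeq2 1.20.0 and GRCm38. The annotation release, strand setting and cell isolation are not given in the sources used here, so reads of a gene and an antisense partner may not be separable. The deposited per-library signal values were gene counts divided by a size factor by the authors: at least 99.9956% of values were whole reads within 0.05 reads once rescaled. Of the log2 fold changes, p-values and score (Wald statistic) columns that the authors deposited, only the values for Nqo1 are quoted.

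The 2 tables were fitted separately with limma 3.58.1 (trend and robust, R 4.3.3) on log2(normalized reads + 1), each fit holding every group of its table. Genes with a mean of at least 10 normalized reads were tested. Fold changes on this scale understate those of low genes. The threshold was a Benjamini-Hochberg adjusted p of 0.05 over all genes tested. The limma procedure was run on simulated counts that had the same dispersion for every gene. That run does not show how well the p-values hold for these libraries. Alternatives were other pseudocounts (0.5, 5), filters (none, 50), a fold of at least 1.5, only the groups compared, TMM scaling, edgeR 4.0.16 and DESeq2 1.42.0 on recovered reads, a replicate block, a marker covariate and leaving out each library. Nothing in the labels says that libraries came from separate animals, so p-values measure only the spread between these libraries. Library pairs within groups differed by more than sampling noise, and none was a duplicate. Exon lengths and positions came from GENCODE M21, which matched 53749 of 54532 symbols. The text names the 9 genes, Trem1, at most the 3 largest passing genes per list and direction, and the 3 genes most like each member. Rac1, Nfe2l2, Keap1 and stress and marker genes were named for their role. Some genes of the lists are not reported here by name. The members and lists were chosen with earlier results of these data known.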

Additional observations from a re-analysis of the deposited data

Results flagged for a closer look

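For 3 genes the age difference itself differed between genotypes in a direct test of the interaction (limma, adjusted over 16086 genes, 3 libraries in each of 4 groups). Gsr differed by -2.07 on the log2 scale, its age difference being 2.08 in wild-type and 0.01 in Trem1-/- libraries. Hmox1 differed by -1.75, with age differences of 1.48 and -0.27. Rac2 differed by -0.93, with age differences of 1.02 and 0.09. The young wild-type libraries, which set the wild-type age difference, had the lowest level of all 3 genes and of the neutrophil and monocyte markers among the 4 groups, and the libraries labelled young Trem1-/- stood above them in both. With the mean of those markers in the fit the difference was -0.77 for Gsr, -1.62 for Hmox1 and 0.21 for Rac2, whose sign turned (limma, adjusted p = 1 for each). No library of these genes was tested as an outlier, since every group has 3 libraries.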

How the results depend on the processing

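The 4 genes called in aged against young wild type kept direction and call under 16 of 17 alternatives each, the exception being the marker covariate, under which the count was 0. Leaving out 1 library gave 4 to 7 genes, 7 without aged wild-type replicate 2. The 4 calls in young Trem1-/- against young wild type became 2 in limma without trend and robust and 0 with the covariate, and 1 to 3 when 1 library was left out, 1 without young wild-type replicate 2. The 3 calls in the difference of the age effects became 0 in limma without trend and robust and 0 with the covariate, and 1 to 4 when 1 library was left out, 1 without young wild-type replicate 2, aged wild-type replicate 3 or aged Trem1-/- replicate 2. The count of 0 in 5XFAD against wild type became 2 with no filter, and 1 with the replicate block, with edgeR and with DESeq2, and 0 to 1 when 1 library was left out. The count of 1 in 5XFAD Trem1+/- against wild type became 2 with no filter, with the replicate block and with DESeq2, and 0 to 2 when 1 library was left out. It became 0 in limma without trend and robust, and 0 with a mean of at least 50, a filter that removed Nqo1. Apart from the constructions just named, the cause was not tested. The residual correlation of same-numbered libraries of different groups had a median of 0.012 in each table and ran from -0.14 to 0.099 in the aging and from -0.033 to 0.20 in the adult table. Between 5XFAD and 5XFAD Trem1+/- it was 0.20, 0.059 and 0.079 for replicates 1, 2 and 3, and each of these 6 libraries correlated best with its own number in the other group, a hint from the data and not from the design. Only 1 of these pairs was over 0.1, so the numbers were not taken as pairs and the replicate block is given here alone. Nqo1 in 5XFAD had an adjusted p of 0.032 with the block, Cyba in 5XFAD Trem1+/- 0.0387, and Txnrd1 in aged wild type 0.0251.

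With the marker covariate the sign turned for the genes named here, with wide errors in the aging table. In aged against young wild type the log2 differences were -0.63 for Cybb, -0.28 for Cyba, -0.25 for Ncf1, -0.95 for Ncf4, -0.30 for Rac2, -0.16 for Nqo1 and -0.33 for Txnrd1. In young Trem1-/- against young wild type the log2 differences were -0.17 for Cybb, -0.12 for Cyba, -0.34 for Ncf1, -0.71 for Ncf4, -0.29 for Rac2, -1.24 for Nqo1 and -0.20 for Txnrd1. In aged Trem1-/- against aged wild type the log2 difference was 0.090 for Ncf4. In aged against young Trem1-/- the log2 differences were -0.18 for Cybb, -0.15 for Ncf4, -0.094 for Rac2 and -0.21 for Gsr. In the difference of the age effects the log2 differences were 0.45 for Cybb, 0.11 for Cyba, 0.29 for Ncf1, 0.80 for Ncf4, 0.21 for Rac2, 1.70 for Nqo1 and 0.18 for Txnrd1. In 5XFAD against wild type the log2 differences were -0.0031 for Ncf1, -0.040 for Ncf4, -0.093 for Rac2 and -0.014 for Gsr. In 5XFAD Trem1+/- against wild type the log2 difference was -0.033 for Rac2. Other settings turned the sign of differences near 0 or with wide intervals. With TMM scaling the values were -0.0075 for Gsr in aged against young Trem1-/-, -0.011 for Ncf4 and -0.0058 for Rac2 in 5XFAD against wild type and 0.0025 for Txnrd1 in 5XFAD Trem1+/- against 5XFAD. With edgeR on recovered reads the values were -0.024 for Rac2 in 5XFAD against wild type and -0.18 for Nqo1 and 0.0069 for Txnrd1 in 5XFAD Trem1+/- against 5XFAD. With DESeq2 on recovered reads the values were -0.012 for Rac2 in 5XFAD against wild type and -0.19 for Nqo1 in 5XFAD Trem1+/- against 5XFAD. When 1 library was left out, the sign turned for further genes that had passed no test. In aged against young wild type the range was -0.16 to 0.18 for Cyba. In young Trem1-/- against young wild type the range was -0.0015 to 0.074 for Ncf1 and -0.37 to 1.91 for Nqo1. In aged Trem1-/- against aged wild type the range was -0.22 to 0.27 for Cybb, -0.15 to 0.18 for Cyba, -0.15 to 0.19 for Ncf4, -0.14 to 0.53 for Nqo1 and -0.35 to 0.12 for Txnrd1. In aged against young Trem1-/- the range was -0.058 to 0.28 for Ncf4, -0.076 to 0.20 for Rac2, -0.10 to 0.18 for Gsr and -0.18 to 0.13 for Txnrd1. In the difference of the age effects the range was -0.30 to 0.038 for Cyba and -1.69 to 0.58 for Nqo1. In 5XFAD against wild type the range was -0.11 to 0.14 for Ncf1, -0.092 to 0.18 for Ncf4, -0.20 to 0.21 for Rac2 and -0.15 to 0.36 for Gsr. In 5XFAD Trem1+/- against 5XFAD the range was -0.028 to 0.22 for Ncf1, -0.11 to 0.21 for Ncf4, -0.081 to 0.18 for Rac2, -0.47 to 0.021 for Hmox1, -0.64 to 1.42 for Nqo1 and -0.14 to 0.13 for Txnrd1. In 5XFAD Trem1+/- against wild type the range was -0.054 to 0.21 for Ncf4, -0.11 to 0.29 for Rac2 and -0.047 to 0.47 for Gsr. Depth limits Nqo1, at 0 to 1 read in adult wild-type libraries.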
